A study of Mus musculus with 18 samples.

Results

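The genes described here are 10 effector cytokines of type 1 and type 2 immunity, chosen by symbol from the gene count table: Ifng, Il2 and Xcl1, Il4 and Il13, the tumour necrosis factor family members Tnf, Lta and Ltb, and the colony-stimulating factors Csf1 and Csf2. All 10 were among the 23337 genes in the table. Of these, 9 passed the filter on low counts and were tested together with 11118 genes in all, and Csf2 did not pass. Ifng, Xcl1, Il2, Il13 and Csf1 passed through NKT1 libraries, NKT2 libraries or both, since the NKT17 libraries held few counts of each. These genes therefore had to differ between some groups. RNA was measured in iNKT cells (natural killer T cells with an invariant receptor), isolated from thymi of wild-type (WT) BALB/c mice and of SKG mice, which carry a hypomorphic point mutation in the SH2 domain of ZAP70, the kinase that relays the T cell receptor signal. Both genotypes were offspring of crosses between BALB/cJ and SKG mice, and the labels used give no age. From each genotype NKT1, NKT2 and NKT17 cells were sorted by CD1d tetramer and surface markers (CD49a for NKT1, high ICOS for both other subsets, syndecan for NKT17), giving 6 groups of 3 libraries and 18 libraries in all. No agent is named for these cells. The labels speak of independent experiments but tie no library to an animal, so p-values measure the spread between these libraries, and in bulk RNA fewer cells with a transcript and less transcript per cell cannot be told apart.

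iNKT cells are T cells with an invariant receptor for lipids presented by CD1d, and they leave selection in the thymus already able to transcribe cytokine genes. NKT1 cells are known for T-bet and interferon-gamma, NKT2 cells for high PLZF and interleukin 4, and NKT17 cells for interleukin 17. Interferon-gamma arms macrophages, interleukins 4 and 13 drive allergic and barrier responses through a shared receptor chain, and the lymphotoxins organise lymphoid tissue.

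The 250 bases before the transcription start are shown for 6 of the genes: Ifng and Xcl1, which were high in NKT1 cells, Il4 and Il13, which were high in NKT2 cells, and Lta and Csf1, which differed between SKG and WT in more than 1 subset. They are given 5′ to 3′ on the strand of the gene, in lower case, with capitals marking the core letters bound by NFAT, the factor that carries the T cell receptor signal to cytokine promoters (GGAAA, or TTTCC where it lies on the other strand). The sequences are from RefSeq promoters of GRCm38.p6, and each was placed by its single exact match on NCBIM37 (mm9).
Ifng: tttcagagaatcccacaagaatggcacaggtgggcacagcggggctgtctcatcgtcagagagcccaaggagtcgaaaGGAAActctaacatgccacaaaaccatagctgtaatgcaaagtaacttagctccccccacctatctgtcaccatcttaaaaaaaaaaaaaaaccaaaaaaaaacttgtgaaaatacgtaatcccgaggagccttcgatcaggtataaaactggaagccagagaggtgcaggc
Xcl1: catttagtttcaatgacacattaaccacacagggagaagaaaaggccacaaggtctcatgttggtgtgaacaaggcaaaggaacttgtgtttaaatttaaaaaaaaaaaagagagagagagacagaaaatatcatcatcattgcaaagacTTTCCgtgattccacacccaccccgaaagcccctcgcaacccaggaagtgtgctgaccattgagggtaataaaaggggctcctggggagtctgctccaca
Il4: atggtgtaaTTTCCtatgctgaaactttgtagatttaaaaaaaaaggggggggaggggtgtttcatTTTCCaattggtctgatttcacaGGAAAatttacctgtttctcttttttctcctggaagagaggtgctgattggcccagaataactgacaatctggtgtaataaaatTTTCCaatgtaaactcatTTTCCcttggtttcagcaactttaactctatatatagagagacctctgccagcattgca
Il13: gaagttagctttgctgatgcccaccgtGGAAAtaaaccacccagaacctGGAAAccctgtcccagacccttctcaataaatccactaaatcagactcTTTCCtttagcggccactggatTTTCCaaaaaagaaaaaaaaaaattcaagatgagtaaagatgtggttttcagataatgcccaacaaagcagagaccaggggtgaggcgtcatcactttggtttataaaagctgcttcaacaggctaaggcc
Lta: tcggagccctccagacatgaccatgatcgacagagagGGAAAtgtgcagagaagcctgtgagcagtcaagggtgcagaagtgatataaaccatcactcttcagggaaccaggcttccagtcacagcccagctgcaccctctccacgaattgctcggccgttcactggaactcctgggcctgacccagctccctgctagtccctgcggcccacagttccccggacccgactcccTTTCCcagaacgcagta
Csf1: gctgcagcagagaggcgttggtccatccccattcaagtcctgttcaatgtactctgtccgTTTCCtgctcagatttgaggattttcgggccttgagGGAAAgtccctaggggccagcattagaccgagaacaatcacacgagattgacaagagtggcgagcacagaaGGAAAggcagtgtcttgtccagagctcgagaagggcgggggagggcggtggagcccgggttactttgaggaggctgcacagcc
These windows lie at chr10:117877852-117878101 (plus strand) for Ifng, chr1:166865654-166865903 (minus) for Xcl1, chr11:53432168-53432417 (minus) for Il4, chr11:53448205-53448454 (minus) for Il13, chr17:35342297-35342546 (minus) for Lta and chr3:107563388-107563637 (minus) for Csf1. The Il4 window held 5 matches to GGAAA on either strand, Il13 held 4, Csf1 and Tnf 3 each, Lta, Il2 and Csf2 2 each, and Ifng, Xcl1 and Ltb 1 each. At least 1 match was present in 55.6% of 27025 promoter windows of the same length, so its presence alone does not set these genes apart. The core letters of T-box factors (GTGTGA, either strand, which cannot overlap GGAAA) was found once in Xcl1 and once in Csf1, against 12.2% of all windows.

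Several of the genes are neighbours. On NCBIM37 Il4 (chr11:53416484-53432171) and Il13 (chr11:53444826-53448204) lie 12654 bases apart on the minus strand, next to Rad50. Ltb (chr17:35331384-35333265), Tnf (chr17:35336326-35338952) and Lta (chr17:35340110-35342296) form a cluster in which 3060 bases separate Ltb from Tnf and 1157 bases separate Tnf from Lta. Of the exon bases of Il4, 179 of 1227 are shared with Kif3a on the opposite strand, and 96 of 800 of Csf2 with Gm12223. Whether the counting used strand is not given in the sources used here, so reads from those stretches are uncertain.

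The libraries held 4391029 to 8895917 counts on genes. Markers of each subset followed the labels: the summed level of 6 NKT1 markers was 7275 to 9625 CPM (counts scaled by library total) in NKT1 libraries and 198 to 454 in the others, and the summed level of 6 NKT17 markers was 2355 to 2613 CPM in NKT17 libraries and 0.845 to 533 in the others. Within NKT17 the genotypes differed in single markers, by the rule for calls given below. Higher in SKG were 2 of the 6, Ccr6 (12.05 CPM on average in WT and 592 in SKG) and Il17rb (168 and 398). Lower were 2, Il23r (454 and 245) and Il1r1 (467 and 233). Of the 5 NKT2 markers other than Il4, the sum was 1651 to 2397 CPM in NKT2 libraries, 1444 to 1638 in NKT17 and 466 to 650 in NKT1, so that list separated NKT2 from NKT1 but barely from NKT17. Zap70 itself, which the point mutation leaves in place, was read at 516 to 605 CPM in WT and 421 to 529 in SKG NKT1 libraries, at 483 to 574 in WT and 360 to 436 in SKG NKT2, and at 716 to 852 in WT and 453 to 565 in SKG NKT17. SKG libraries lay below WT without overlap in NKT2 and NKT17.

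Per transcript length, Ltb was the most abundant of the 10 genes in every group. In RPKM, which is CPM divided by exon length in kilobases, Ltb stood at 903 ± 28.8 in WT NKT1 (SD, n = 3, as for every mean here), 342 ± 54.6 in WT NKT2 and 812 ± 122 in WT NKT17. It made up 47.0% of the summed RPKM of the 10 genes in WT NKT1, 67.3% in WT NKT2 and 89.6% in WT NKT17, and 50.9%, 84.1% and 89.4% in the SKG groups in the same order. The next gene differed by subset. In WT NKT1 it was Xcl1 with 41.2% of the sum, followed by Ifng with 9.42%. In WT NKT2 it was Il4 with 23.3% (7.97% in SKG NKT2, where Ltb was 828 ± 94.7 RPKM), and in WT NKT17 it was Lta with 5.29%.

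**Figure D1:**
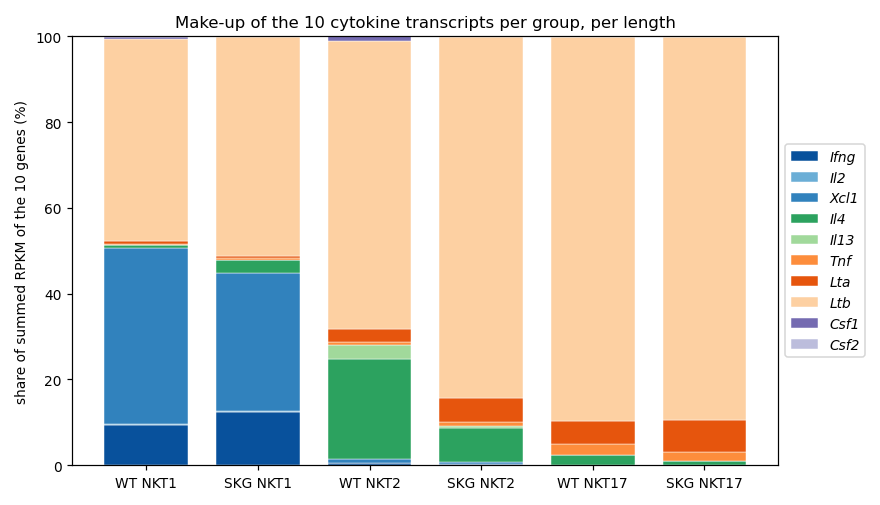
Share of the summed RPKM (percent, group means of 3 libraries) that each of the 10 cytokine genes took in the 6 groups, as stacked bars. Ltb takes 47.0% to 89.6% of every bar, Xcl1 and Ifng are visible in NKT1 and Il4 in NKT2.

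Most of the 9 tested genes differed between the subsets. For Ifng, Xcl1, Il2, Il13 and Csf1 some difference was set by the filter. The genes were also chosen with earlier results of these data known, so these counts and those for SKG only describe them. A gene was called where edgeR's adjusted p was under 0.1 and the difference at least 1.5-fold. In WT, 8 of 9 were called between NKT1 and NKT2 (6 higher in NKT1, 2 lower), where 27.5% of all tested genes were called (13.7% higher, 13.7% lower). Between NKT1 and NKT17 in WT it was 8 of 9 (4 higher in NKT1, 4 lower) beside 24.7% of all genes (11.2% higher, 13.5% lower), and between NKT17 and NKT2 in WT again 8 of 9 (3 higher in NKT17, 5 lower) beside 20% (11.0% higher, 8.97% lower). In SKG the counts were 7 of 9 between NKT1 and NKT2 (4 higher, 3 lower) beside 18.7% (10.0% higher, 8.63% lower), 8 of 9 between NKT1 and NKT17 (6 higher, 2 lower) beside 22.8% (10.2% higher, 12.5% lower), and 7 of 9 between NKT17 and NKT2 (2 higher, 5 lower) beside 18.8% (10.5% higher, 8.27% lower). The comparisons of 1 genotype share libraries.

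The SKG genotype changed fewer of them. In NKT1 cells 3 of 9 were called (Il4 and Il13 higher in SKG, Csf1 lower) beside 3.27% of all tested genes (1.46% higher, 1.82% lower). In NKT2 cells it was 5 of 9 (Tnf, Lta and Ltb higher, Il13 and Csf1 lower) beside 7.95% (3.90% higher, 4.05% lower). In NKT17 cells it was 4 of 9 (Lta higher, Il4, Il13 and Csf1 lower) beside 8.37% (3.83% higher, 4.54% lower). The median log2 fold change of the 9 was -0.11, -0.20 and 0.00 in NKT1, NKT2 and NKT17, beside -0.01, 0.00 and 0.00 over all genes, so the calls went in both directions. Tested directly, the effect of SKG differed between NKT2 and NKT1 for 5 of the 9 (3.87% of all genes), between NKT17 and NKT1 for 4 (4.17%) and between NKT17 and NKT2 for 2 (2.19%).

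**Figure D2:**
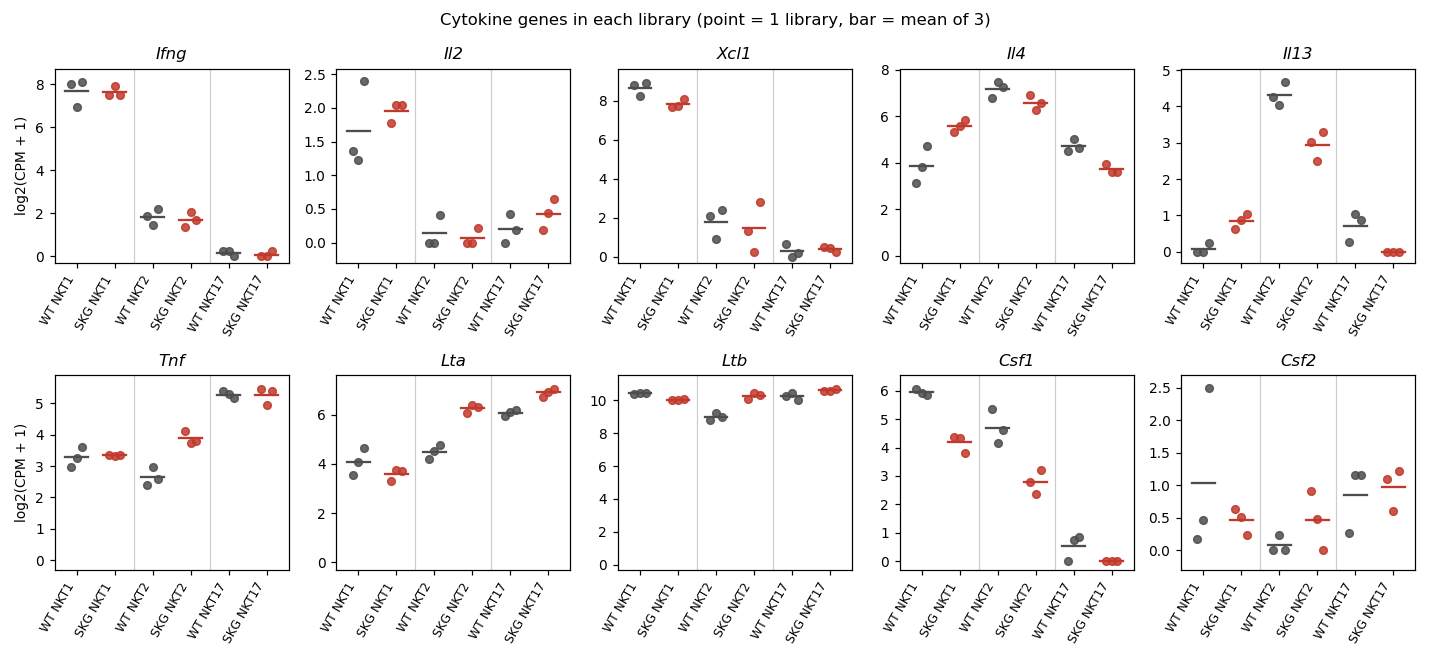
Level of each of the 10 genes as log2(CPM + 1) in every library, by group (grey WT, red SKG); each point is 1 library and each bar the mean of 3. Ifng and Xcl1 are high in NKT1 only, Il4 and Il13 are highest in NKT2, Lta and Ltb rise in SKG NKT2, and Csf1 sits lower in SKG NKT1 and NKT2 than in WT.

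Ifng, the macrophage-activating type 1 cytokine, was a transcript of NKT1 cells. It was read at 260, 123 and 272 CPM in the 3 WT NKT1 libraries and at 179, 244 and 184 in SKG NKT1. In NKT2 it was 2.66, 1.75 and 3.56 CPM in WT and 1.54, 3.13 and 2.25 in SKG, and the NKT17 libraries held only 2 counts in WT and 1 in SKG in all. All NKT1 libraries lay above all others. In WT the level was 81.2-fold higher in NKT1 than in NKT2 (log2 6.34, SE 0.35, edgeR adjusted p 4.27e-11) and in SKG 86.1-fold (6.43, SE 0.35, adjusted p 9.29e-11). Against WT NKT17 the ratio of NKT1 to NKT17 was 2053 with a counting interval of 568 to 16960 (95%, exact, counting error only). NKT17 lay below NKT2 as well, with a ratio of NKT2 to NKT17 of 24.3 (6.35 to 207) in WT and 42.2 (7.12 to 1712) in SKG. The NKT1 marker list summed to 313 to 454 CPM in WT NKT2 and 319 to 366 in WT NKT17. Of its genes, Tbx21, which encodes T-bet, averaged 28.2 and 0.825 CPM there, and Il2rb 232 and 298. Between these groups 4 of the 6 were lower in NKT17 (Cxcr3, Klrd1, Nkg7 and Tbx21) and 1 higher (Klrb1c), by the same rule for calls. The part of NKT1 cells in the NKT2 level of Ifng was not tested.

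For the SKG genotype no difference in Ifng passed the test. The log2 fold change was -0.11 (SE 0.24, adjusted p 0.917) in NKT1 and -0.20 (SE 0.46, adjusted p 0.866) in NKT2, with overlapping libraries in both, and its direction in NKT1 turned to 0.04 without WT NKT1 replicate 1 and to 0.08 without WT NKT1 replicate 3. WT NKT1 was also the group with the widest spread, since its replicate 2 held less than either other library.

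Xcl1 encodes lymphotactin, a chemokine that draws cross-presenting dendritic cells through XCR1, and it followed Ifng across the 18 libraries (r = 0.97 of log2 CPM, a description over libraries of 6 groups). It was read at 452, 299 and 490 CPM in WT NKT1 and at 203, 212 and 273 in SKG NKT1. NKT2 libraries held 3.27, 0.874 and 4.20 CPM in WT and 1.54, 0.196 and 5.94 in SKG, and NKT17 libraries held 4 counts in all in WT and 6 in SKG. Xcl1 was therefore 147-fold higher in NKT1 than in NKT2 in WT (log2 7.20, SE 0.56, adjusted p 3.00e-07) and 82.4-fold in SKG (log2 6.37, SE 0.55, adjusted p 1.25e-06). NKT17 was lower than NKT2 in WT (log2 -3.54, SE 1.17, adjusted p 0.0445) and in SKG (log2 -2.98, SE 1.09, adjusted p 0.0705). These calls rested on few counts. The WT call was lost without WT NKT17 replicate 2 (adjusted p 0.121), WT NKT17 replicate 3 (0.145) or WT NKT2 replicate 3 (0.160). The SKG call was lost without any of the SKG NKT17 replicates 1, 2 and 3 (adjusted p 0.152, 0.145 and 0.174) and without SKG NKT2 replicate 3, which held most of the counts (log2 -1.27, adjusted p 0.543).

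All SKG NKT1 libraries lay below all WT NKT1 libraries for Xcl1, a 1.81-fold lower mean level, but the difference was not called (log2 -0.85, SE 0.39, adjusted p 0.346). It was called when only the 6 libraries compared were fitted (log2 -0.83, adjusted p 0.0604). Relative to Ifng in the same library and per length, Xcl1 was 4.00, 5.64 and 4.16 times as abundant in WT NKT1 and 2.62, 2.00 and 3.43 times in SKG NKT1, so the 2 sets of ratios did not overlap.

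Il2, the T cell growth factor, was a scarce transcript that was detected mainly in NKT1 cells. WT NKT1 libraries held 1.57, 1.34 and 4.25 CPM (13, 7 and 24 counts) and SKG NKT1 libraries 2.42, 3.12 and 3.12 CPM. NKT2 libraries held 2 counts in all in WT and 1 in SKG, and NKT17 libraries 3 and 6. The ratio of NKT1 to NKT2 was 19.3 (5.03 to 164, counting error only) in WT, with an edgeR adjusted p of 0.00451, and 45.8 (7.82 to 1847) in SKG, with an adjusted p of 0.00224. NKT1 also exceeded NKT17, by a ratio of 13.9 (4.46 to 70.0) in WT (adjusted p 0.00700) and by a fitted log2 fold change of 3.01 (SE 0.91, adjusted p 0.0156) in SKG. No SKG difference in Il2 passed the test, and in NKT1 the log2 fold change was 0.28 (SE 0.75, adjusted p 0.939).

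The type 2 genes behaved differently. Il4, the cytokine that switches B cells to IgE and drives Th2 differentiation, was read in every library. In NKT2 it was 110, 175 and 152 CPM in WT and 119, 75.6 and 93.9 in SKG. In NKT17 it was 21.9, 31.3 and 24.0 CPM in WT and 14.6, 11.2 and 11.1 in SKG. In NKT1 it was 7.73, 13.0 and 25.3 CPM in WT and 39.2, 47.1 and 56.1 in SKG. NKT2 was the highest group in both genotypes, while the order of NKT1 and NKT17 differed between them.

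In WT, NKT1 held less Il4 than NKT2 by 9.62-fold (log2 -3.27, SE 0.32, edgeR adjusted p 3.39e-07). It also held less than NKT17 by 1.70-fold (log2 -0.77, SE 0.32, adjusted p 0.0861), with libraries that overlapped, and that call was lost without WT NKT1 replicate 1 (log2 -0.42, adjusted p 0.310), WT NKT1 replicate 2 (0.206), WT NKT17 replicate 2 (0.223) or WT NKT17 replicate 3 (0.120). In SKG the NKT1 level was 2.02-fold below NKT2 (log2 -1.02, SE 0.30, adjusted p 0.0189) and 3.85-fold above NKT17 (log2 1.94, SE 0.32, adjusted p 0.000141). NKT17 was below NKT2 by 5.66-fold in WT (log2 -2.50, SE 0.31, adjusted p 7.23e-06) and by 7.78-fold in SKG (log2 -2.96, SE 0.33, adjusted p 1.88e-06).

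The SKG genotype moved Il4 in opposite directions. It was 3.14-fold higher in SKG NKT1 than in WT NKT1 (log2 1.65, SE 0.32, edgeR adjusted p 0.00614), with no overlap between libraries. It was 2.09-fold lower in SKG NKT17 (log2 -1.06, SE 0.32, adjusted p 0.0494), again with no overlap, and this call was lost without WT NKT17 replicate 2 (adjusted p 0.144), SKG NKT17 replicate 2 (0.136) or SKG NKT17 replicate 3 (0.161). In NKT2 the log2 fold change was -0.60 (SE 0.29, adjusted p 0.247) and the libraries overlapped. The effect in NKT1 differed from that in NKT2 (difference, NKT2 minus NKT1, -2.25, SE 0.43, adjusted p 0.00543) and from that in NKT17 (NKT17 minus NKT1, -2.71, SE 0.45, adjusted p 0.00222), whereas the effects in NKT17 and NKT2 were not told apart (-0.46, SE 0.43, adjusted p 0.811). Besides Il4, none of the other 5 NKT2 markers was called higher in SKG NKT1, Plac8 was called lower, and their sum was 466 to 650 CPM in WT NKT1 and 512 to 519 in SKG NKT1. The double-positive thymocyte list summed to 2.78 to 14.2 CPM in WT NKT1 libraries and 18.6 to 25.4 in SKG NKT1. Of its 7 genes 3 could be tested, and of these Themis was called (0.118 and 19.3 CPM on average). Cd8a and Cd8b1 averaged 4.67 and 1.77 CPM in WT and 0.270 and 1.56 in SKG, and Rag2 and Dntt were at 0. The list was also higher in SKG than in WT in NKT2 and NKT17. The part of such cells in the Il4 difference was not tested. Within single libraries and per length, Ifng exceeded Il4 by 34.3, 9.60 and 10.9 times in WT NKT1 and by 4.64, 5.28 and 3.32 times in SKG NKT1, without overlap.

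Il13, which acts through the Il4 receptor chain on mucus, smooth muscle and macrophages, showed the same pattern at a lower level. NKT2 libraries held 18.2, 15.4 and 24.4 CPM in WT and 7.05, 4.70 and 8.83 in SKG. WT NKT1 held a single count in its 3 libraries, and SKG NKT1 held 3, 4 and 6 counts (0.557, 0.833 and 1.04 CPM). WT NKT17 held 1, 6 and 6 counts, and SKG NKT17 held none in any library. In WT the ratio of NKT2 to NKT1 was 374 (66.7 to 14820, counting error only; edgeR adjusted p 9.83e-08), and NKT17 was 26.7-fold below NKT2 (log2 -4.74, SE 0.59, adjusted p 3.11e-06). The WT ratio of NKT17 to NKT1 was 13.7 (2.06 to 583, adjusted p 0.0169). In SKG the order of those subsets was the opposite. NKT1 was 8.27-fold below NKT2 (log2 -3.05, SE 0.58, adjusted p 0.000517). Set at a floor of 3 counts over the group, NKT17 was 42.2-fold lower than NKT2 (adjusted p 1.84e-06) and 4.92-fold lower than NKT1 (adjusted p 0.00295).

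Il13 was 2.81-fold lower in SKG NKT2 than in WT NKT2 (log2 -1.49, SE 0.48, edgeR adjusted p 0.0609), without overlap. With SKG NKT17 set at the floor of 3 counts, Il13 was 4.32-fold lower there than in WT NKT17 (adjusted p 0.0130). In NKT1 the ratio of SKG to WT was 15.6 (2.35 to 664, counting error only, adjusted p 0.0689). The NKT2 call was lost without WT NKT2 replicate 1, 2 or 3 (adjusted p 0.125, 0.106 and 0.251) and without SKG NKT2 replicate 1 or 2 (0.154 and 0.217). The NKT1 call was lost without WT NKT1 replicate 1 or 2 (0.198 and 0.152) and without SKG NKT1 replicate 2 or 3 (0.135 and 0.186). The effect of SKG in NKT1 differed from that in NKT2 (adjusted p 0.0129) and from that in NKT17 (adjusted p 0.00426), while the effects in NKT17 and NKT2 were not told apart (adjusted p 0.295). Per length, Il4 exceeded Il13 by 5.95, 11.2 and 6.13 times in WT NKT2 and by 16.6, 15.8 and 10.5 times in SKG NKT2, which overlapped. Il13 was among all tested genes the one whose log2 CPM was most like that of Il4 over the 18 libraries (r = 0.949). The mast cell and basophil genes Ms4a2 and Fcer1a, which mark another source of Il4 and Il13, were at 0 in all 6 groups, and the summed level of their list of 5 was 0 to 1.42 CPM.

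**Figure D3:**
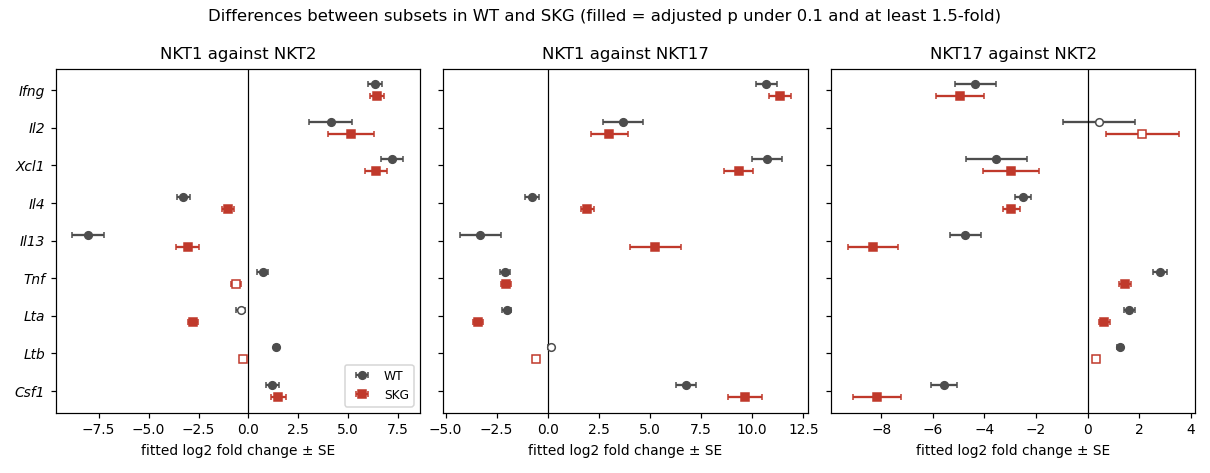
Fitted log2 fold change between subsets for the 9 tested genes, WT as grey circles and SKG as red squares, with SE bars; filled symbols were called. Il4 and Il13 lie on opposite sides of 0 in WT and SKG between NKT1 and NKT17, and fitted values of groups with 0 to 3 counts depend on the prior count.

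Tnf and Lta were highest in NKT17 cells of each genotype, whereas Ltb in WT was not told apart between NKT1 and NKT17 (log2 0.15, SE 0.12, edgeR adjusted p 0.370). Tnf, a pro-inflammatory cytokine read by both TNF receptors, was 40.6, 37.9 and 34.6 CPM in WT NKT17 and 42.6, 29.5 and 41.1 in SKG NKT17. In NKT1 it was 6.88, 8.59 and 11.2 CPM in WT and 9.29, 8.96 and 9.18 in SKG. In NKT2 it was 4.29, 6.82 and 5.01 CPM in WT and 16.3, 12.3 and 13.0 in SKG. All NKT17 libraries lay above all others, and the NKT2 libraries of both genotypes did not overlap.

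Tnf in WT NKT17 was 6.97-fold above NKT2 (log2 2.80, SE 0.26, edgeR adjusted p 2.12e-08) and NKT1 was 4.26-fold below NKT17 (log2 -2.09, SE 0.25, adjusted p 5.02e-07). WT NKT1 was 1.63-fold above NKT2 (log2 0.71, SE 0.26, adjusted p 0.0436), a call lost without WT NKT1 replicate 3 (adjusted p 0.199), WT NKT2 replicate 1 (0.167) or WT NKT2 replicate 3 (0.133). In SKG that order was not kept, and NKT1 lay below NKT2 in every library without being called (log2 -0.60, SE 0.25, adjusted p 0.101). That difference was called under RLE scaling (adjusted p 0.0990), upper-quartile scaling (0.0709) and a mean of at least 50 counts (0.0882). SKG NKT17 was 2.72-fold above SKG NKT2 (log2 1.45, SE 0.24, adjusted p 8.16e-05).

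Lta encodes lymphotoxin alpha, which is secreted alone or held at the membrane by lymphotoxin beta. It was 60.7, 67.1 and 70.8 CPM in WT NKT17 and 105, 121 and 129 in SKG NKT17. In NKT2 it was 17.2, 21.7 and 26.0 CPM in WT and 66.1, 83.6 and 79.0 in SKG. In NKT1 it was 10.6, 15.7 and 23.7 CPM in WT and 8.73, 12.5 and 12.1 in SKG. SKG NKT2 libraries thus reached the range of WT NKT17. In WT, NKT17 was 3.05-fold above NKT2 (log2 1.61, SE 0.22, edgeR adjusted p 6.64e-06), and NKT1 was 4.01-fold below NKT17 (log2 -2.00, SE 0.22, adjusted p 2.24e-07) and not told apart from NKT2 (log2 -0.39, SE 0.23, adjusted p 0.201), although it was called below NKT2 without WT NKT1 replicate 3 (log2 -0.76, adjusted p 0.0107). In SKG, NKT1 was 6.85-fold below NKT2 (log2 -2.78, SE 0.24, adjusted p 6.02e-09) and 10.7-fold below NKT17 (log2 -3.41, SE 0.24, adjusted p 1.35e-10). SKG NKT17 was 1.55-fold above SKG NKT2 (log2 0.64, SE 0.21, adjusted p 0.0306), a call lost without SKG NKT17 replicate 3 (0.117) or SKG NKT2 replicate 1 (0.129).

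Ltb encodes the membrane anchor of lymphotoxin, the ligand of the lymphotoxin beta receptor on stromal cells. It was 1327, 1415 and 1366 CPM in WT NKT1 and 1029, 1017 and 1088 in SKG NKT1. In NKT2 it was 448, 610.1 and 499 CPM in WT and 1099, 1382 and 1285 in SKG. In NKT17 it was 1222, 1419 and 1050 CPM in WT and 1538, 1501 and 1614 in SKG. WT NKT2 was the single low group, below NKT1 (2.64-fold, edgeR adjusted p 3.24e-09) and below NKT17 (2.37-fold, adjusted p 2.93e-08). In SKG no pair of subsets reached 1.5-fold, and NKT1 was 1.49-fold below NKT17 (log2 -0.57, SE 0.12, adjusted p 0.000611), which passed 1.5-fold without SKG NKT1 replicate 3 (log2 -0.60) or SKG NKT17 replicate 2 (-0.59) and with upper-quartile scaling (-0.60).

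All 3 TNF family genes were higher in SKG NKT2 than in WT NKT2, each without overlap. Lta was 3.51-fold higher (log2 1.81, SE 0.22, edgeR adjusted p 6.22e-06), Tnf 2.56-fold (log2 1.36, SE 0.26, adjusted p 0.00129) and Ltb 2.42-fold (log2 1.27, SE 0.12, adjusted p 1.25e-07). In NKT17 only Lta was called, 1.79-fold higher in SKG (log2 0.84, SE 0.21, adjusted p 0.0119), while Ltb was higher in every SKG library at 1.26-fold (log2 0.33, SE 0.12, adjusted p 0.0785) and Tnf had a log2 fold change of 0.00 (SE 0.23, adjusted p 0.998). In NKT1 none was called: Ltb was lower in every SKG library at 1.31-fold (log2 -0.39, SE 0.12, adjusted p 0.0785), Lta had a log2 fold change of -0.57 (SE 0.24, adjusted p 0.270) with overlapping libraries and was called without WT NKT1 replicate 1 (log2 -0.82, adjusted p 0.0489), and Tnf had 0.05 (SE 0.25, adjusted p 0.973).

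The effect of SKG on Lta was larger in NKT2 than in NKT1 by 2.38 on the log2 scale (SE 0.32, edgeR adjusted p 8.71e-05) and larger in NKT17 than in NKT1 by 1.41 (SE 0.32, adjusted p 0.0150). The Ltb effect was larger in NKT2 than in NKT1 by 1.66 (SE 0.17, adjusted p 1.41e-06), larger in NKT17 than in NKT1 by 0.72 (SE 0.16, adjusted p 0.0159) and smaller in NKT17 than in NKT2 (-0.94, SE 0.16, adjusted p 0.00244). The Tnf effect in NKT2 exceeded that in NKT1 by 1.31 (SE 0.36, adjusted p 0.0553) and that in NKT17 (-1.35, SE 0.35, adjusted p 0.0527). Both Tnf differences were close to the threshold. The first was lost without SKG NKT1 replicate 1, 2 or 3 (adjusted p 0.10, 0.104 and 0.102), WT NKT1 replicate 3 (0.120), WT NKT2 replicate 1 or 3 (0.145 and 0.133) or SKG NKT2 replicate 1 (0.154). The other was lost without WT NKT2 replicate 1 or 3 (0.127 and 0.146), WT NKT17 replicate 1 (0.119), SKG NKT2 replicate 1 (0.144) or SKG NKT17 replicate 2 (0.128).

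Other markers moved with these genes. The summed NKT17 list was 442 to 533 CPM in SKG NKT2 and 224 to 376 in WT NKT2. Most of the sum was Il17rb (481 and 278 CPM on average), and Sdc1 and Il23r averaged 0.384 and 0.507 CPM in SKG NKT2 against 422 and 454 in WT NKT17. The list of double-positive thymocyte genes summed to 134 to 165 CPM in SKG NKT2 against 39.3 to 60.6 in WT NKT2, and to 61.9 to 78.2 in SKG NKT17 against 8.20 to 21.2 in WT NKT17. Of the 3 of 7 genes that could be tested, Themis was called higher in NKT2 and Themis and Cd8b1 in NKT17, and Rag1 was at 0 in NKT2 and NKT17 libraries of both genotypes. B cell genes, whose cells transcribe Ltb, summed to 25.3 to 40.9 CPM in SKG NKT17 against 8.10 to 11.5 in WT NKT17, with Cd79b as the single gene that could be tested and was called, and Pax5 at 0 in every group. The part of these cells in the TNF family differences was not tested.

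The ratio of these neighbours within a library also shifted. Per length, Lta was 4.74, 3.77 and 6.16 times as abundant as Tnf in WT NKT2 and 4.80, 8.03 and 7.20 times in SKG NKT2, which overlapped. In NKT17 the ratios were 1.77, 2.10 and 2.43 in WT and 2.92, 4.88 and 3.73 in SKG, without overlap. Ltb exceeded Lta by 23.8, 25.7 and 17.5 times in WT NKT2 and by 15.2, 15.1 and 14.8 times in SKG NKT2, and by 18.4, 19.3 and 13.5 against 13.4, 11.3 and 11.4 times in NKT17, without overlap in either. The flanking genes of the cluster, Lst1 beyond Ltb and Nfkbil1 beyond Lta, were not called in any subset between SKG and WT (adjusted p from 0.394 to 0.934).

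**Figure D4:**
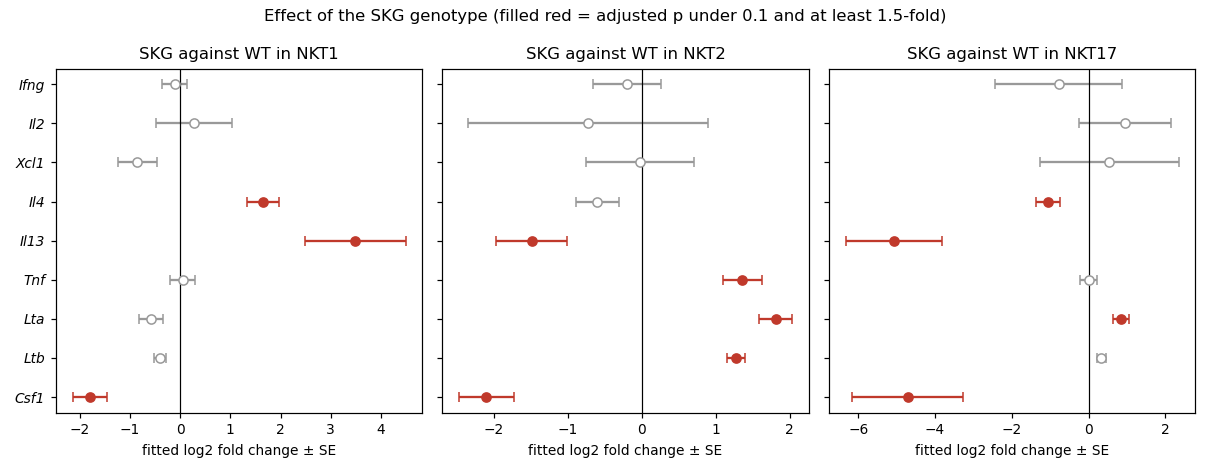
Fitted log2 fold change of SKG against WT with its SE for the 9 tested genes in each subset, on separate axes; filled red points were called. Tnf, Lta and Ltb lie to the right in NKT2, Csf1 to the left in each subset, and Il4 to the right in NKT1 and to the left in NKT17; the NKT17 values of Il13 and Csf1 stand against SKG groups at 0 and depend on the prior count.

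Csf1, the growth factor of monocytes and macrophages, was called lower in SKG in each subset. WT NKT1 libraries held 65.4, 59.8 and 57.0 CPM and SKG NKT1 libraries 19.7, 19.4 and 13.2. WT NKT2 libraries held 39.7, 16.8 and 23.4 CPM and SKG NKT2 libraries 5.95, 4.11 and 8.35. WT NKT17 libraries held 0, 4 and 6 counts and SKG NKT17 libraries none. NKT1 was the highest group in both genotypes and NKT17 the lowest. Csf1 was 3.49-fold lower in SKG NKT1 (log2 -1.80, SE 0.34, edgeR adjusted p 0.00440) and 4.28-fold lower in SKG NKT2 (log2 -2.10, SE 0.37, adjusted p 0.000646), both without overlap, and the 2 effects were not told apart (difference -0.29, SE 0.49, adjusted p 0.869). In NKT17, with SKG set at the floor of 3 counts, it was 3.33-fold lower in SKG (adjusted p 0.0456). The libraries overlapped at 0, and the call was lost without WT NKT17 replicate 3 (adjusted p 0.156) or without SKG NKT17 replicate 1, 2 or 3 (0.141, 0.10 and 0.118).

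Between subsets, Csf1 was 2.29-fold higher in WT NKT1 than in WT NKT2 (log2 1.19, SE 0.33, edgeR adjusted p 0.00887) and 2.80-fold in SKG (log2 1.49, SE 0.37, adjusted p 0.00557). WT NKT17 was 47.0-fold below WT NKT2 (log2 -5.56, SE 0.50, adjusted p 2.93e-08). Set at the floor of 3 counts, SKG NKT17 was 38.0-fold lower than SKG NKT2 (adjusted p 1.18e-06) and 104-fold lower than SKG NKT1 (adjusted p 1.19e-08). Csf1r, the receptor gene that marks macrophages, was at 0 in 5 of the 6 groups and averaged 0.408 CPM in WT NKT2. The myeloid list of 7 genes summed to 5.80 to 13.8 CPM in WT NKT1 against 1.39 to 3.90 in SKG NKT1 and to 8.58 to 22.2 in WT NKT2 against 5.29 to 14.1 in SKG NKT2, with neither of the 2 tested genes called. NKT1 markers, whose cells hold the most Csf1, summed to 216 to 337 CPM in SKG NKT2 against 313 to 454 in WT NKT2, and 3 of 6 (Il2rb, Klrb1c and Klrd1) were called lower. The part of either cell type in the Csf1 difference was not tested.

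Csf2, which encodes GM-CSF, stayed under the filter and has no test. WT NKT1 libraries held 1, 2 and 26 counts, so the group mean of 1.70 ± 2.52 CPM rested on replicate 3. WT NKT17 libraries held 1, 7 and 9 counts and SKG NKT17 libraries 8, 3 and 7. SKG NKT1 held 3, 2 and 1, SKG NKT2 4, 2 and 0, and WT NKT2 a single count in all. Apart from WT NKT17 above WT NKT2, all groups compared overlapped.

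Receptors of the 10 cytokines were followed as a list of 17, of which 12 were tested. SKG against WT called 2 lower and none higher in NKT1, 3 higher and 1 lower in NKT2, and 2 higher and 2 lower in NKT17, beside 3.27%, 7.95% and 8.37% of all tested genes, with medians of -0.24, 0.18 and 0.30 on the log2 scale. Il4ra, the signalling chain for both Il4 and Il13, was 70.0 ± 16.7 CPM in SKG NKT2 against 7.50 ± 2.24 in WT NKT2 (log2 3.20, SE 0.24, edgeR adjusted p 9.00e-09). Il2ra, the high-affinity chain for Il2, was 25.6 ± 11.2 against 1.14 ± 1.16 CPM in the same comparison (log2 4.42, SE 0.43, adjusted p 1.10e-06). Ifngr1 was lower in SKG NKT17 (338 ± 41.1 against 686 ± 101 CPM, log2 -1.02, SE 0.11, adjusted p 1.82e-06), as was Il2rb (182 ± 25.2 against 298 ± 22.0 CPM, log2 -0.71, SE 0.11, adjusted p 0.000139). In WT, Ifngr1 was 1382 ± 79.7 CPM in NKT1 against 95.5 ± 6.65 in NKT2 (log2 3.86, SE 0.13, adjusted p 1.41e-15). Ifngr2, the other receptor chain, averaged 0.794 CPM in WT NKT1 against 65.8 ± 5.73 in WT NKT17 (log2 -6.43, SE 0.40, adjusted p 7.04e-11). Il4ra was higher in WT NKT1 (126 ± 28.9 CPM) than in the NKT2 cells that held most Il4 (log2 4.05, SE 0.24, adjusted p 1.95e-11).

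Of 22 tested transcription factors that act on cytokine genes, SKG against WT called 1 higher in NKT1, 3 higher and 3 lower in NKT2, and 1 higher and 1 lower in NKT17, beside the same 3.27%, 7.95% and 8.37% of all genes, with medians of -0.05, 0.25 and -0.12 on the log2 scale. In NKT1 and NKT17 those shares are near the background. In NKT2 the NFAT gene Nfatc1 was lower in SKG (222 ± 37.1 against 417 ± 43.0 CPM, log2 -0.91, SE 0.14, edgeR adjusted p 0.000170), and so was Gata3, the Th2 factor of the Il4 and Il13 locus (173 ± 11.2 against 270 ± 26.0 CPM, log2 -0.64, SE 0.13, adjusted p 0.00208). Stat4, the interleukin 12 signal carrier, was higher in SKG NKT2 from a low level (7.74 ± 5.29 against 1.49 ± 0.834 CPM, log2 2.46, SE 0.51, adjusted p 0.00603). Among 11 regulators of cytokine mRNA decay, 2 were called higher in SKG NKT2, 1 lower in SKG NKT17 and none in NKT1 (medians 0.22, 0.21 and -0.21). Beside them stood 7.95%, 8.37% and 3.27% of all genes in the same order, so the NKT17 share is near the background. Zfp36, which encodes tristetraprolin, the protein that destabilises Tnf mRNA, was 160 ± 2.75 against 100.2 ± 19.4 CPM in NKT2 (log2 0.68, SE 0.21, adjusted p 0.0514), and Zc3h12a, the regnase-1 gene, 14.3 ± 2.22 against 7.15 ± 0.706 (log2 1.00, SE 0.29, adjusted p 0.0349). Zfp36l1 was lower in SKG NKT17 (520 ± 13.7 against 887 ± 120 CPM, log2 -0.77, SE 0.11, adjusted p 5.27e-05). Of 15 immediate-early genes, which mark recent stimulation, none was called in NKT1 or NKT17. In NKT2 1 was called (Ier3, lower), a share near the 7.95% of all genes. Their medians were 0.11 in NKT1, 0.60 in NKT2 and -0.04 in NKT17, where all tested genes together had -0.01, 0.00 and 0.00.

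Other cytokine genes of lymphocytes, 18 tested of 27, gave 1 call higher in SKG NKT1 (Ccl5), 3 higher and 2 lower in NKT2, and 3 higher and 2 lower in NKT17 (medians 0.07, 0.16 and 0.06), again beside 3.27%, 7.95% and 8.37% of all genes. Cd40lg, Fasl and Flt3l were the 3 higher genes in both subsets. Fasl, the death ligand of the TNF family, was 94.2 ± 24.6 CPM in SKG NKT2 against 13.9 ± 3.39 in WT NKT2 (log2 2.75, SE 0.19, edgeR adjusted p 2.69e-09), and Cd40lg 354 ± 31.5 against 196 ± 7.02 (log2 0.85, SE 0.10, adjusted p 3.49e-06). Tnfsf11, which encodes RANKL, was lower in SKG in NKT2 and NKT17 and fell in NKT17 from 87.5 ± 28.3 to 8.94 ± 2.87 CPM (log2 -3.30, SE 0.28, adjusted p 5.33e-08), the opposite direction to Lta in the same cells. Flt3l was 83.4 ± 5.90 against 30.6 ± 6.06 CPM in NKT17 (log2 1.44, SE 0.20, adjusted p 4.19e-05).

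Over the 18 libraries the genes most like each cytokine in log2 CPM were Lrrk1 (r = 0.986), Ctsw and Klra3 for Ifng, Ly6c1 (0.981), Ly6c2 and Tyrobp for Xcl1, and Ifnar2 (0.944), Rasal3 and Apol9b for Il2. For Il4, after Il13, they were Slc16a1 and Mki67ip, and for Il13 Hc and Smpdl3b. For Tnf they were Actn2 (0.967), Bik and Mif4gd, for Lta 1110002B05Rik (0.956), Rarg and 2010015L04Rik, for Ltb Scg5 (0.936), Cd96 and Ndfip2, and for Csf1 Lpcat4 (0.965), Myo6 and Rgs3. Only Il4 and Il13 named each other. Tnf and Lta correlated at 0.79, Tnf and Ltb at 0.67 and Lta and Ltb at 0.44, and Csf1 with Tnf at -0.92. The points are 6 groups of 3, so these values mostly describe the differences between groups. Flanking genes were the nearest that do not overlap a cytokine gene, so Kif3a and Adad1, which overlap Il4 and Il2, were passed over. Rad50 next to Il13 was not called between SKG and WT in any subset (adjusted p 0.648, 0.733 and 0.770). Il21, which lies 96799 bases from Il2, was called lower in SKG NKT2 (adjusted p 0.0405). Sept8, which lies 53416 bases from Il4 on the side away from Il13, was called higher in SKG NKT1 (log2 2.34, adjusted p 0.000130) and SKG NKT17 (log2 0.75, adjusted p 0.0835) and not in NKT2 (log2 -0.15, adjusted p 0.832).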

How the data were processed

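RNA from sorted cells was amplified by a Smart-seq2-like poly-A protocol and sequenced as single-end reads. The values are the deposited counts per gene, which the authors obtained by aligning reads with TopHat and counting with HTSeq in union mode. The submitters' processing notes list TopHat 1.4.1, Bowtie 1.0.0, HTSeq 0.7.1 and builds mm10 and hg19, while the study's methods name mm9, so coordinates are given for NCBIM37 (mm9) as an annotation and not as the counting reference. Groups came from the labels. The 2 columns that belong to no listed sample were not used.

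From the counts, CPM and RPKM (CPM per kilobase of merged GENCODE exons) were computed on library sizes over tested genes scaled by TMM factors, as mean ± SD. All 18 libraries were fitted with edgeR 4.0.16 (quasi-likelihood, TMM, filter by expression) in R 4.3.3, with Benjamini-Hochberg adjustment over 11118 genes, and a call needed an adjusted p under 0.1 and 1.5-fold. Folds without a log2 value beside them against groups of 0 counts use a floor of 3 counts for that group and carry no interval. Those against 1 to 3 counts have an exact 95% interval, which covers counting error only. The fit was tested on simulated data. Named genes were all 10 cytokines, the 3 most correlated genes of each, up to 4 genes per list by smallest adjusted p, and flanking genes. The cytokines and lists were chosen with earlier results of these data known. No pair of libraries of a group agreed within sampling noise (chi-square per degree of freedom at least 5.47). DESeq2 1.42.0, other scalings, filters, thresholds, a block on the title number and leaving out each library were tried as alternatives. Some marker genes of the lists are not reported here.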

Additional observations from a re-analysis of the deposited data

Results flagged for a closer look

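The effect of SKG (SKG against WT, log2 fold change) differed between subsets, by edgeR's test of the difference itself, in 11 instances over 5 genes. Between NKT2 and NKT1 (NKT2 minus NKT1) the difference was -2.25 for Il4, -4.98 for Il13, 1.31 for Tnf, 2.38 for Lta and 1.66 for Ltb. Between NKT17 and NKT1 (NKT17 minus NKT1) it was -2.71 for Il4, -8.56 for Il13, 1.41 for Lta and 0.72 for Ltb. Between NKT17 and NKT2 (NKT17 minus NKT2) it was -1.35 for Tnf and -0.94 for Ltb. The Il13 values rest on groups with 0 or 1 count and depend on the prior count. The 3 comparisons share libraries. Groups of 3 libraries are too small for a test of single outlying libraries.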

How the results depend on the processing

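Of 69 member differences that were called, 58 kept their call and direction under every alternative in which they could be tested, and none of the 69 reversed. Of 39 that were not called, 25 were followed: 15 stayed uncalled under every alternative and 6 of the 25 kept their direction as well, while 22 single values changed sign. The number of genes called between SKG and WT in NKT17 was 4 and became 2 when only the libraries compared were fitted (Il4 and Lta), where Il13 and Csf1 did not pass the filter and were not tested, and ranged from 2 to 4 when single libraries were left out, with 2 without SKG NKT17 replicate 2 or replicate 3. Between NKT1 and NKT17 in WT it was 8 and became 5 with only the libraries compared, where Il13 and Il2 did not pass the filter and Il4 was no longer called (log2 -0.75, adjusted p 0.235). For the difference of the SKG effect between NKT17 and NKT2 it was 2 and became 1 (Ltb) at an adjusted p under 0.05, and ranged from 1 to 2 over the left-out libraries, where Tnf was lost without WT NKT2 replicate 1 or 3, WT NKT17 replicate 1, SKG NKT2 replicate 1 or SKG NKT17 replicate 2. At an adjusted p under 0.05, Il13 in NKT1 and NKT2 between SKG and WT and the Tnf difference between NKT2 and NKT1 were lost as well.

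Values near 0 changed sign. The log2 fold change of Tnf between SKG and WT in NKT17 was -0.01 under RLE scaling and -0.01 under DESeq2. With single libraries left out it ranged from -0.09 to 0.15, that of Tnf in NKT1 from -0.11 to 0.26, that of Ifng from -0.37 to 0.08 in NKT1 and from -0.45 to 0.09 in NKT2, that of Il2 in NKT2 from -2.68 to 1.95 and that of Xcl1 in NKT2 from -1.72 to 0.51, that of Il2 between NKT17 and NKT2 in WT from -0.46 to 3.10, and the Csf1 effect difference between NKT2 and NKT1 from -0.62 to 0.08. The causes were not tested.

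Library titles carry a number shared by subsets of a genotype and partly by the genotypes. Libraries with the same number deviated from their group means with correlations of -0.061 to 0.351 within a genotype (18 pairs, median 0.17, 12 over 0.1). By these values subsets of a genotype shared variation by number. Libraries of the same genotype with different numbers had a median of -0.097 (36 pairs, 3 over 0.1). Deviations from a group mean cancel within the group, so that median is tied to the first and is no separate evidence. Across genotypes, libraries with the same number had correlations of -0.151 to 0.090. What the number stands for is not stated, and the main tests did not pair libraries by it. As a hint from the data only, the best correlated library of another subset, out of 3, carried the same number in 32 of 36 instances. These instances look at each pair of groups from both sides. With it as a replicate block, SKG against WT also called Il4 in NKT2 (log2 -0.83, adjusted p 0.0480) and Lta in NKT1 (-0.75, 0.0379), no longer called Il13 in NKT1 (3.05, 0.167), and called the Lta effect difference between NKT17 and NKT2 (adjusted p 0.0212). The block gave 0.15 for Ifng, -0.19 for Il2 and -0.04 for Tnf in NKT1 and -0.10 for Tnf in NKT17, and changed no other call.

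With 3 libraries a group, low transcripts limit what can be read: Il13 outside NKT2, Il2 outside NKT1, Csf1 in NKT17 and Csf2 in all groups rest on few counts. Amplified reads without molecular identifiers are not independent molecules.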
